A study of Mus musculus with 18 samples.

Results

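Trp63, Acta2, Myh11, Cnn1, Mylk, Tagln and Oxtr are genes that mark the basal layer of the mammary epithelium or let its cells contract. They were chosen by symbol, and all 7 were present among the 23337 gene symbols of the count table. All 7 also passed the low-count filter, which left 15482 genes.

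The mammary duct and alveolus have an inner luminal layer, which makes milk, and an outer basal layer of myoepithelial cells, which contract to eject it. The transcription factor p63, the product of Trp63, keeps basal identity. Oxytocin acts on the receptor encoded by Oxtr, calcium then activates the kinase encoded by Mylk, and myosin slides along smooth muscle actin. Smooth muscle cells around blood vessels use the same contractile proteins, so in whole gland RNA Acta2, Myh11, Cnn1, Mylk and Tagln are not specific to basal cells.

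RNA was sequenced from mammary gland tissue of mice on a C57BL/6Jx129 background, of wild type (WT) or Cip2a-/- genotype. The Cip2a protein inhibits the phosphatase PP2A, and the sources used here do not say how the allele was made. There were 6 groups of 3 libraries, each genotype untreated, 2 weeks after the last dose of DMBA, or at the endpoint. DMBA (7,12-dimethylbenz[a]anthracene) is a carcinogen that causes mammary and other tumours, and glands from mice given oil alone were not analysed here. Mice of the 2-week and endpoint groups, in both genotypes, were gavaged once weekly with 1 mg of DMBA in oil, 6 doses in all, from an age of 12 to 14 weeks. Endpoint glands held no tumour, but their donors had been killed because DMBA had caused a tumour somewhere in the body. Lymph nodes were left out of all glands. Each library carries its own number in the labels, but the sources used here give no litter, cage, age at sampling or oestrous stage, so p-values measure the spread between these samples.

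Total counts ran from 16121743 to 24586404 per library. Cip2a reads followed the genotype labels, with 15 to 126 reads in each WT library and 0 or 1 in each Cip2a-/- library. WT endpoint replicate 1 stood apart in epithelial genes. Its level of the basal keratin gene Krt14 was 0.887 CPM (reads scaled to the size of the library), against at least 11.4 CPM in each of the other 17 libraries, and its level of the epithelial adhesion gene Epcam was 4.37 CPM, against at least 62.9 CPM. Contents of other tissue also differed widely, with the muscle gene Ckm between 0.929 and 9288 CPM over the 18 libraries. Whole gland RNA cannot tell fewer cells of a type from less RNA per cell.

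In the mouse genome build GRCm38 (mm10), 3 of the genes lie on chromosome 16, which also carries Cip2a. Trp63 spans 25683763 to 25892102 on the plus strand, 23.1 Mb from Cip2a. Mylk spans 34745210 to 35002420 on the plus strand, 14.0 Mb from it. Myh11 spans 14194535 to 14291372 on the minus strand, 34.7 Mb from it. Which parental strain each stretch of chromosome 16 came from was not tested. Cnn1 lies on chromosome 9 at 22099216 to 22109630 (plus) and Tagln on the same chromosome at 45929619 to 45936058 (minus). Acta2 lies on chromosome 19 at 34241090 to 34255590 (minus) and Oxtr on chromosome 6 at 112473683 to 112489943 (minus). Exons of Mylk and Tagln overlap exons of genes on the opposite strand, by at most 645 bases in Tagln. Because the sources used here do not give the strand setting of the counting, reads of such neighbours could be included.

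Serum response factor (Srf), the factor through which smooth muscle genes are switched on, binds CArG boxes, which are CC, then 6 bases rich in A and T, then GG, read the same on either strand. The 250 bases before an annotated start site were available from RefSeq (GRCm38.p6) for Acta2, Cnn1, Mylk and Oxtr. The Mylk window spans 34784700 to 34784949, inside the gene annotated from 34745210, so it precedes an internal start site. The sequence before the first base of the annotated Mylk gene was not searched. A CArG box with at most 1 C or G among the 6 middle bases was found in the window of Acta2 only, at 2 positions. These sites are shown because they belong to the most abundant of the 7 transcripts. Each is given 5′ to 3′ on the gene's strand with the box in capitals.
Acta2, chr19:34255438-34255467, minus strand, box starting 84 bases before the start site: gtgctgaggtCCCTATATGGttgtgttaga
Acta2, chr19:34255388-34255417, minus strand, box starting 34 bases before the start site: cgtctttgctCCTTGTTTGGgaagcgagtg
Both sites lie in sequence that GENCODE M21 also annotates as exon of an Acta2 transcript. The same pattern occurs in 8.59% of the 32851 mouse windows of this length (2823 windows). No match in the windows of Cnn1, Mylk and Oxtr says only that these letters are not there, and both Acta2 boxes hold 1 C or G in the middle, so neither meets the stricter pattern (1.47% of windows).

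Smooth muscle actin led the 7 genes by level and Trp63 came last. Per kilobase of the longest coding transcript, the median over 18 libraries was 244 CPM per kb for Acta2, 124 for Tagln, 38.8 for Myh11, 24.8 for Cnn1, 21.8 for Oxtr, 17 for Mylk and 2.52 for Trp63. The order was the same per kilobase of all annotated exon sequence. Cnn1 and Oxtr, neighbours in this order, ranged from 2.98 to 52.6 and from 4.86 to 183 CPM per kb, so their libraries overlapped over most of that range. Mylk, the next below, ranged from 7.40 to 23.0 CPM per kb, within the range of both.

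Values below are in CPM after scaling for library composition, given for replicates 1, 2 and 3 in that order, with replicate numbers from the sample titles. Trp63 had 7.42, 13.7 and 13.3 CPM in untreated WT glands, 19.6, 8.79 and 18.1 at 2 weeks and 6.59, 28.2 and 17.5 at the endpoint. In Cip2a-/- glands Trp63 had 11.4, 22.9 and 11.5 CPM untreated, 30.7, 11.6 and 7.79 at 2 weeks and 17.2, 6.45 and 26.2 at the endpoint. All 6 groups overlapped, and the Cip2a-/- 2-week group held the highest library of all 18 (30.7 CPM) beside one of 7.79 CPM. Of the variance of Trp63 in log2 CPM, 4.28% lay between groups, against a median of 34.9% over all genes tested and 29.4% given by the degrees of freedom alone for equal groups.

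Acta2, which encodes smooth muscle actin, had 209, 566 and 541 CPM in untreated WT glands, 483, 308 and 445 at 2 weeks and 113, 879.7 and 182 at the endpoint. In Cip2a-/- glands it had 219, 621 and 256 CPM untreated, 424, 510.0 and 526 at 2 weeks and 746, 532 and 849.9 at the endpoint. WT endpoint glands held both the highest and the lowest value of all 18, a 7.77-fold range within 1 group, whereas the 3 Cip2a-/- endpoint glands differed by 1.60-fold. Myh11, which encodes the smooth muscle myosin heavy chain, had 116, 266 and 284 CPM in untreated WT glands, 323, 158 and 273 at 2 weeks and 100.5, 371 and 118 at the endpoint. In Cip2a-/- glands it had 211, 325 and 157 CPM untreated, 242, 224 and 228 at 2 weeks and 363, 313 and 472 at the endpoint. At the endpoint WT replicate 2 lay among the Cip2a-/- values of Myh11, with the other 2 WT glands below all 3.

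Among the regulators, Mylk encodes myosin light chain kinase, which starts contraction. It had 71.4, 151 and 159 CPM in untreated WT glands, 173, 104 and 144 at 2 weeks and 75.1, 169 and 57.9 at the endpoint, and in Cip2a-/- glands 114, 159 and 100.5 CPM untreated, 114, 124 and 135 at 2 weeks and 131, 143 and 180.1 at the endpoint. Mylk varied least of the 7 genes, 3.11-fold from lowest to highest. Cnn1 encodes calponin, an actin-binding protein that restrains myosin. It had 21.9, 62.6 and 54.0 CPM in untreated WT glands, 61.8, 28.0 and 57.3 at 2 weeks and 7.10, 125 and 22.1 at the endpoint, and in Cip2a-/- glands 23.6, 84.7 and 29.0 CPM untreated, 68.3, 61.0 and 43.3 at 2 weeks and 89.5, 73.2 and 93.8 at the endpoint. The WT endpoint group spanned 17.7-fold for Cnn1, the full range of the gene in the study, with all 3 Cip2a-/- endpoint values inside it. Tagln encodes transgelin, a calponin relative that binds actin. It had 128, 248 and 256 CPM in untreated WT glands, 203, 125 and 196 at 2 weeks and 77.8, 345 and 115 at the endpoint, and in Cip2a-/- glands 132, 298 and 139 CPM untreated, 198, 197 and 195 at 2 weeks and 328, 242 and 454 at the endpoint. The Cip2a-/- 2-week glands were nearly equal in Tagln, while the WT endpoint glands differed by 4.44-fold.

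Oxtr, the receptor gene, had 28.7, 107 and 98.0 CPM in untreated WT glands, 206, 108 and 132 at 2 weeks and 26.0, 296 and 22.9 at the endpoint. In Cip2a-/- glands Oxtr had 72.3, 126 and 49.6 CPM untreated, 71.3, 182 and 148 at 2 weeks and 859, 69.8 and 33.7 at the endpoint. Its 37.5-fold range was the widest of the 7, and its top value came from Cip2a-/- endpoint replicate 1. The same library held the highest levels of the milk protein genes Csn2 (1656 CPM, against 0.269 and 2.21 in the other 2 glands of its group) and Lalba (131 CPM, against 0.537 and 1.33). WT 2-week replicate 1, highest of its group in Oxtr, had the next highest levels of both, with 769 CPM of Csn2 and 79.2 CPM of Lalba. WT endpoint replicate 2, with 296 CPM of Oxtr, had 82.3 CPM of Csn2 and 1.04 CPM of Lalba. The part of secretory state in the Oxtr values was not tested.

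**Figure D1:**
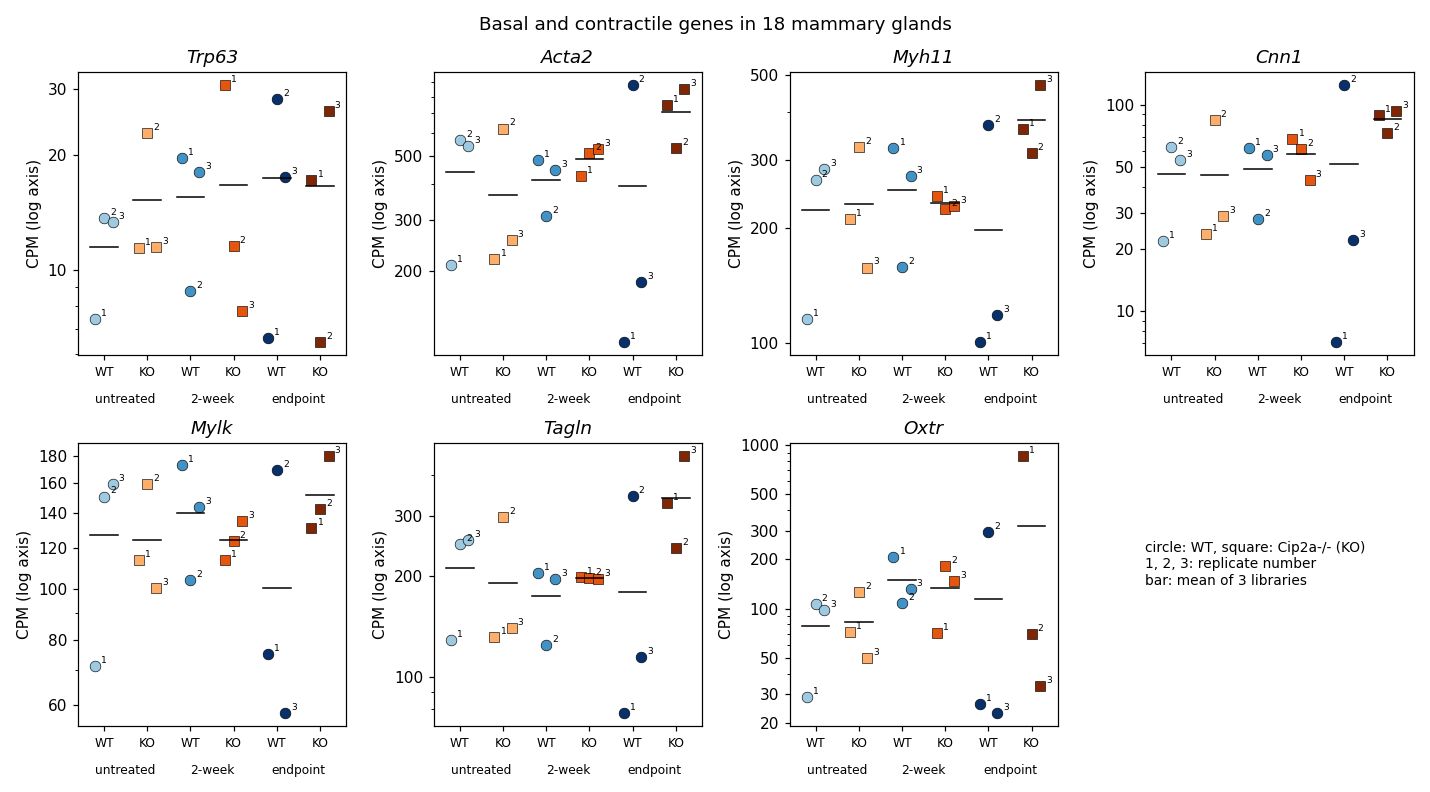
CPM on log axes for each of the 7 genes, with 1 point per library, circles for WT and squares for Cip2a-/- (KO), and a bar for the mean of 3 libraries. The WT endpoint column is the most stretched for Acta2, Cnn1 and Tagln (7.77-fold, 17.7-fold and 4.44-fold from lowest to highest), and Oxtr reaches 859 CPM in 1 Cip2a-/- endpoint gland.

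Within a group the same glands tended to be high or low in all 7 genes. WT untreated replicate 1 was the lowest of its group in 7 of 7, and Cip2a-/- untreated replicate 2 the highest in 7 of 7. Among WT 2-week glands replicate 1 was highest and replicate 2 lowest in 7 of 7. WT endpoint replicate 2 was highest in 7 of 7, and Cip2a-/- endpoint replicate 3 was highest in 6 of 7, Oxtr being the exception. In Cip2a-/- 2-week glands the order was mixed, with replicate 1 highest in 4 genes and lowest in the other 3. The SD within groups ran from 0.48 on the log2 scale for Mylk to 1.45 for Oxtr, against a median of 0.41 over all genes tested.

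Glands taken 2 weeks after the last dose of DMBA were compared next with untreated glands. In this comparison DMBA cannot be told apart from gavage, oil or age at sampling. With both genotypes averaged, the 7 genes had a median log2 fold change of 0.16, against -0.00049 over all genes tested. The fitted log2 fold changes ran from -0.11 ± 0.34 (SE) for Tagln to 0.82 ± 0.76 for Oxtr, which had a mean of 77.8 ± 42.8 CPM (SD, n = 3) untreated and 149 ± 50.8 CPM at 2 weeks in WT glands. By edgeR's quasi-likelihood test with Benjamini-Hochberg adjustment 0 of the 7 passed, as did 0.0258% of all genes tested, and 0 of 7 had an unadjusted p under 0.05 (6.57% of all genes). The adjusted p was 0.871 for Oxtr and 0.984 for Tagln. Within WT glands 0 of 7 passed (0% of all genes) and within Cip2a-/- glands 0 of 7 (0.0129%), with 0 of 7 at an unadjusted p under 0.05 in each (4.23% and 4.53%). In WT glands all 3 Oxtr values at 2 weeks lay above all 3 untreated values, by a margin of 108 against 107 CPM, a separation that 25.8% of all genes tested showed in 1 direction or the other. Oxtr there had a log2 fold change of 0.93 ± 1.08 (adjusted p = 0.953). In the other members and in Cip2a-/- glands the 2-week and untreated values overlapped.

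At the endpoint the comparison with untreated glands used the same untreated libraries. Averaged over the genotypes, the log2 fold changes ran from -0.03 ± 0.26 for Mylk to 1.26 ± 0.77 for Oxtr, with a median of 0.36 against 0.02 over all genes, and 0 of 7 passed (0.252% of all genes), with 0 at an unadjusted p under 0.05 (16.9%). The adjusted p of the edgeR quasi-likelihood test was 0.440 for Oxtr and 0.971 for Mylk. The fitted values of the genotypes differed in sign for Acta2, Myh11, Mylk and Tagln. In WT glands 3 of 7 were above untreated and 4 below, with a median of -0.16, and 0 of 7 passed (0.0323% of all genes, and 12% at an unadjusted p under 0.05). In Cip2a-/- glands 7 of 7 were above untreated with a median of 0.85, against 47.2% of all genes above 0, and 0 of 7 passed (0%, and 14.6% unadjusted). Oxtr had 0.56 ± 1.08 in WT glands (adjusted p = 0.860) and 1.96 ± 1.11 in Cip2a-/- glands, where its adjusted p of 0.392 by the edgeR quasi-likelihood test was the smallest of any of the 7 genes in any of the 13 comparisons. Without Cip2a-/- endpoint replicate 1, the library with 859 CPM, that log2 fold change was -0.67. Endpoint and untreated values overlapped for all 7 genes in both genotypes (16.3% of all genes did not overlap in WT and 17.6% in Cip2a-/- glands).

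The difference between the genotypes in the change from untreated to endpoint glands was tested directly. This interaction was 1.12 ± 0.88 (log2) for Acta2 and 1.40 ± 1.52 for Oxtr, its median over the 7 genes was 0.90 against -0.06 over all genes, and 0 of 7 passed (0% of all genes, and 10% at an unadjusted p under 0.05, with edgeR adjusted p = 0.616 and 0.717). The corresponding interaction at 2 weeks had a median of -0.15, with 0 of 7 passing (0%, and 2.9% at an unadjusted p under 0.05).

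Endpoint glands were also compared with 2-week glands, averaged over the genotypes. Of the 7 genes 0 passed the edgeR quasi-likelihood test, although 13.4% of all genes tested did, more than in any of the other 12 comparisons (6.41% higher and 6.94% lower). At an unadjusted p under 0.05 there were 0 of 7, against 30.1% of all genes. Tagln had a log2 fold change of 0.42 ± 0.34, with a mean of 179 ± 145 CPM (SD, n = 3) at the endpoint and 174 ± 43.3 CPM at 2 weeks in WT glands, and 341 ± 107 and 197 ± 1.74 CPM in Cip2a-/- glands (adjusted p = 0.430). Mylk had -0.10 ± 0.26 and Oxtr 0.44 ± 0.76 (adjusted p = 0.825 and 0.720). The median over the 7 was 0.24, against 0.05 over all genes.

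**Figure D2:**
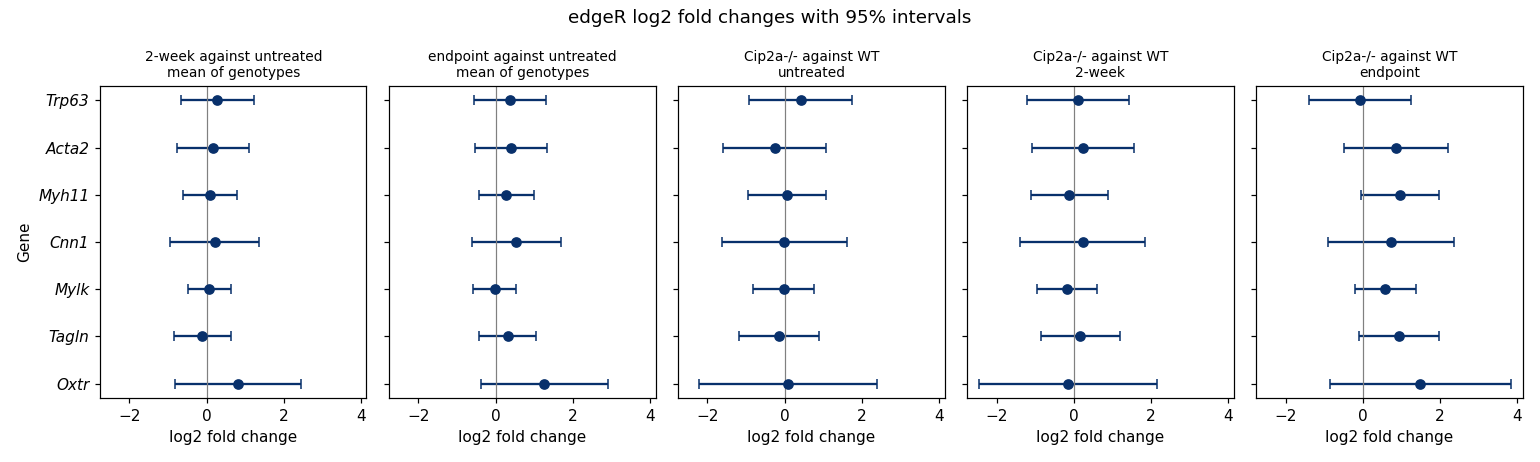
Log2 fold changes of the 7 genes (rows) with 95% intervals from the edgeR fit in 5 comparisons (panels), with a line at 0. All intervals shown include 0, and for 6 of 7 genes the highest of the 5 values is that between the genotypes at the endpoint, Trp63 being the exception at -0.07.

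Loss of Cip2a was compared in each condition. In untreated glands the log2 fold changes of Cip2a-/- over WT ran from -0.27 ± 0.62 for Acta2 to 0.41 ± 0.62 for Trp63, with a median of -0.01 against 0.04 over all genes. At 2 weeks they ran from -0.18 ± 0.37 for Mylk to 0.24 ± 0.62 for Acta2, with a median of 0.10. The groups overlapped for all 7 genes in both conditions (12.4% and 13.2% of all genes did not overlap). In either condition 0 of 7 passed (0% of all genes untreated, 0.00646% at 2 weeks, adjusted p of 1.00 for each of the 7 by edgeR) and 0 of 7 had an unadjusted p under 0.05 (2.27% and 2.44%). Averaged over the 3 conditions, the fitted value was above 0 for 7 of 7 genes with a median of 0.30 (54.3% of all genes were above 0), and 0 of 7 passed (0.00646%, and 0.917% unadjusted).

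At the endpoint the contractile genes had higher means in Cip2a-/- glands, but the WT glands were split. Acta2 averaged 709 ± 162 CPM in Cip2a-/- against 392 ± 424 CPM in WT glands (SD, n = 3 each), and Myh11 383 ± 81.5 against 197 ± 152 CPM. Tagln averaged 341 ± 107 against 179 ± 145 CPM, Cnn1 85.5 ± 10.8 against 51.5 ± 64.3 CPM and Mylk 151 ± 25.6 against 101 ± 60.1 CPM. The log2 fold change was 0.86 ± 0.63 for Acta2, 0.96 ± 0.47 for Myh11, 0.93 ± 0.49 for Tagln, 0.73 ± 0.76 for Cnn1 and 0.58 ± 0.37 for Mylk. For Oxtr it was 1.48 ± 1.09 and for Trp63 -0.07 ± 0.62. The median was 0.86, against -0.02 over all genes tested, and the groups overlapped for all 7. By the edgeR quasi-likelihood test 0 of 7 passed (0.00646% of all genes), with adjusted p between 0.473 for Myh11 and 0.971 for Trp63, and 0 of 7 had an unadjusted p under 0.05, against 10.7% of all genes. DESeq2 called 0 of 7 with 1 at an unadjusted p under 0.05, and limma voom called 0 of 7 with 3. In the other 12 comparisons edgeR also gave 0 of 7 at an unadjusted p under 0.05, DESeq2 gave 1 in Cip2a-/- endpoint against untreated glands, and limma voom gave 1 in the endpoint interaction. The share of all genes with an unadjusted p under 0.05 was not counted for DESeq2 and limma voom. Their counts therefore have no background beside them. The 95% interval of the Myh11 value ran from -0.05 to 1.97, from slightly lower to 1.97 log2 units higher in Cip2a-/- glands.

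These values turned on WT endpoint replicate 2, the only WT endpoint gland with high contractile genes. Without it the log2 fold change was 2.26 for Acta2, 1.81 for Myh11, 1.83 for Tagln, 2.55 for Cnn1 and 1.19 for Mylk, with edgeR adjusted p between 0.0562 for Acta2 and 0.0687 for Mylk, still 0 of 7 past the threshold. The share of all genes that passed in that fit is not given here. Without WT endpoint replicate 1, the gland poor in keratins, the same genes had 0.39, 0.61, 0.54, 0.18 and 0.38. Oxtr had 3.71 without WT replicate 2 and -1.18 without Cip2a-/- replicate 1. Marker levels differed in the same way across these glands. The summed level of 14 basal markers was 306, 1897 and 446 CPM in WT replicates 1, 2 and 3, and 990 to 1958 CPM in the Cip2a-/- endpoint glands. The summed level of 9 skeletal muscle genes was 40183, 21 and 1985 CPM in the same WT order, and 17 to 354 CPM in Cip2a-/- glands. For 4 brown adipocyte genes it was 7770, 26.0 and 138 CPM in WT and 44.8 to 172 CPM in Cip2a-/- glands. For 5 B cell genes it was 1525, 3.37 and 349 CPM in WT and 3.65 to 34.5 CPM in Cip2a-/- glands. The part of gland composition in the genotype difference was not tested.

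**Figure D3:**
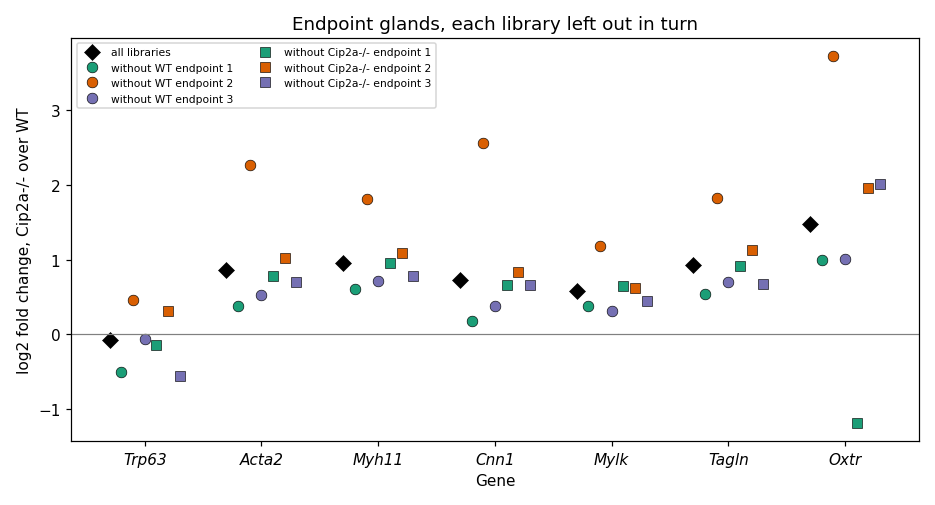
Log2 fold change of Cip2a-/- over WT at the endpoint for each gene, with all libraries (black diamond) and with 1 library left out (circles for a WT library, squares for a Cip2a-/- library, coloured by replicate). The values without WT replicate 2 lie highest for all 7 genes, up to 3.71 for Oxtr, which also falls to -1.18 without Cip2a-/- replicate 1.

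Across the 18 libraries the 5 contractile genes Acta2, Myh11, Cnn1, Mylk and Tagln varied together. Their 10 pairs had Pearson's r of 0.81 to 0.96 and Spearman's rho of 0.75 to 0.95 in log2 CPM (permutation p of 1e-05 to 8e-05 for r and 1e-05 to 0.00047 for rho, 1e-05 being the smallest that 100000 permutations can give). Adjusted over the 21 pairs of the 7 genes, p ran from 2.62e-05 to 0.000168 for r. With each group mean removed r was 0.79 to 0.98, and without the 2 libraries farthest from the median 0.80 to 0.96. The strongest pair was Acta2 with Cnn1 at 0.96.

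Trp63 and Oxtr followed the contractile genes less closely in value, a difference that was not tested. Trp63 had r of 0.43 (with Mylk) to 0.64 (with Cnn1), and 4 of its 5 pairs with contractile genes passed, Mylk not (permutation p = 0.0751, adjusted p = 0.0789). Oxtr had r of 0.53 (with Tagln) to 0.67 (with Acta2), and 5 of 5 passed, the largest adjusted permutation p being 0.0256. Trp63 and Oxtr had r = 0.29 and rho = 0.31 with each other (permutation p = 0.252 and 0.207, adjusted p = 0.252 for r). Without WT endpoint replicate 1, 16 of the 21 pairs passed in place of 19, and without the 2 farthest libraries 15.

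**Figure D4:**
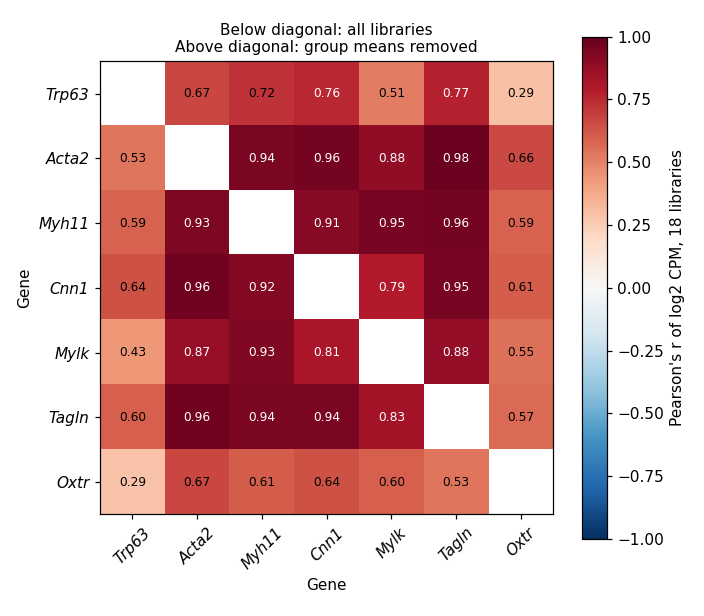
Pearson's r of log2 CPM over 18 libraries for each pair of the 7 genes, below the diagonal from all values and above it after each group mean was removed, on a colour scale from -1 to 1. The block of Acta2, Myh11, Cnn1, Mylk and Tagln is uniformly dark (0.79 to 0.98), and the pair of Trp63 and Oxtr is the palest at 0.29.

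The 7 genes were compared with marker lists of the basal layer and of the vessel wall that hold none of them. Each gene's log2 CPM was centred on its own mean, and the score of a list averages the centred values. With the score of 14 basal epithelial markers, such as Krt5, Krt14 and Cdh3, the 5 contractile genes had r of 0.85 to 0.94 and rho of 0.83 to 0.95 (permutation p of 1e-05 for each r and at most 4e-05 for rho, adjusted p = 2.8e-05 over 14 relations). These values were 0.82 to 0.96 with group means removed and 0.81 to 0.90 without the 2 farthest libraries. Trp63 had 0.66 with the basal score (rho = 0.72, permutation p = 0.00208 and 0.00131, adjusted p = 0.00485 and 0.00306). Oxtr had 0.59 (rho = 0.56, permutation p = 0.0104 and 0.0157, adjusted p = 0.0208 and 0.0315), but 0.38 without the 2 farthest libraries, so its relation rests on those libraries. With group means removed the Oxtr relation did not pass (r = 0.57, permutation p = 0.143, adjusted p = 0.287).

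With the score of 16 markers of vascular mural cells (pericytes and vessel smooth muscle), such as Rgs5, Notch3 and Pdgfrb, the 5 contractile genes had r of 0.09 to 0.35 and rho of -0.05 to 0.36. Of the 7 genes 0 passed (the smallest permutation p was 0.149, for Mylk, and its adjusted p 0.261). The difference between the basal and the mural r was not tested. Over the 18 libraries the mural score ran only from -0.57 to 0.56, and the basal score from -2.60 to 1.51. Mural markers also moved apart. Cip2a-/- means at 2 weeks and the endpoint were 59.4 and 20.2 CPM for Rgs5, and 206 and 232 CPM for Notch3. A low r with so narrow and mixed a score cannot tell whether these genes follow the vessel wall.

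Scores of 11 further lists were compared in the same way after the data were seen, in a family of 91 relations with the 2 lists above. With 15 luminal epithelial markers the 5 contractile genes had r of 0.68 to 0.87 (rho 0.70 to 0.82, 5 of 5 passing, permutation p at most 0.00235 and 0.00156, adjusted p of r at most 0.0137). With group means removed this r was 0.55 to 0.89, and that of Mylk did not pass (0.55, permutation p = 0.299). With 9 skeletal muscle genes r was -0.71 to -0.58 (rho -0.75 to -0.61, 5 of 5, permutation p at most 0.0117 and 0.00883, adjusted p of r at most 0.0427). With 5 B cell genes r was -0.73 to -0.61 (rho -0.65 to -0.50, 5 of 5, permutation p at most 0.00775 and 0.0346, adjusted p of r at most 0.0307), and with group means removed Mylk again did not pass (-0.58, permutation p = 0.0784). Without the 2 farthest libraries r was weaker for B cell genes, at -0.57 to -0.41. It was then 0.65 to 0.75 for luminal markers and -0.73 to -0.53 for skeletal muscle genes. Of the WT endpoint glands, replicate 1 had the highest skeletal muscle and B cell scores (5.68 and 5.92) and the lowest level of 4 of the 5 contractile genes, and replicate 2 the lowest scores (-5.45 and -2.90) and the highest level of 5 of 5. Endothelial, fibroblast, white adipocyte, epidermal and Srf factor scores gave 0 of 5 passing each, with r between -0.07 and 0.44, and brown adipocyte genes 0 of 5 with r between -0.57 and -0.23. The score of the 21 other genes of the contractile apparatus also gave 0 of 5, with r of -0.02 to 0.08 (rho -0.18 to -0.04, permutation p of r at least 0.751), and -0.47 to -0.31 without the 2 farthest libraries. The summed level of these genes was highest in Cip2a-/- 2-week, WT untreated and WT endpoint replicate 1 (12611, 8780 and 8663 CPM). The same libraries had the highest summed skeletal muscle genes (63165, 32073 and 40183 CPM). The part of skeletal muscle content in this score was not tested. With the oxytocin and calcium signalling list 1 of 5 passed, Mylk (r = 0.66, rho = 0.44, permutation p = 0.00355 and 0.0654, adjusted p of r = 0.0179), which had 0.39 without the 2 farthest libraries, so its relation rests on those libraries. With group means removed, and all 18 libraries kept, r of Mylk with this list was 0.72 (permutation p = 0.0196, not adjusted). Trp63 passed with the luminal score (r = 0.57, rho = 0.65, permutation p = 0.0042 and 0.00451, adjusted p of r = 0.0201). It also passed with the Srf factor score (r = 0.61, permutation p = 0.00618, adjusted p of r = 0.0268), but r was 0.40 without the 2 farthest libraries. Oxtr passed with none of the 11 further lists. All relations share the same 18 libraries and library totals.

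**Figure D5:**
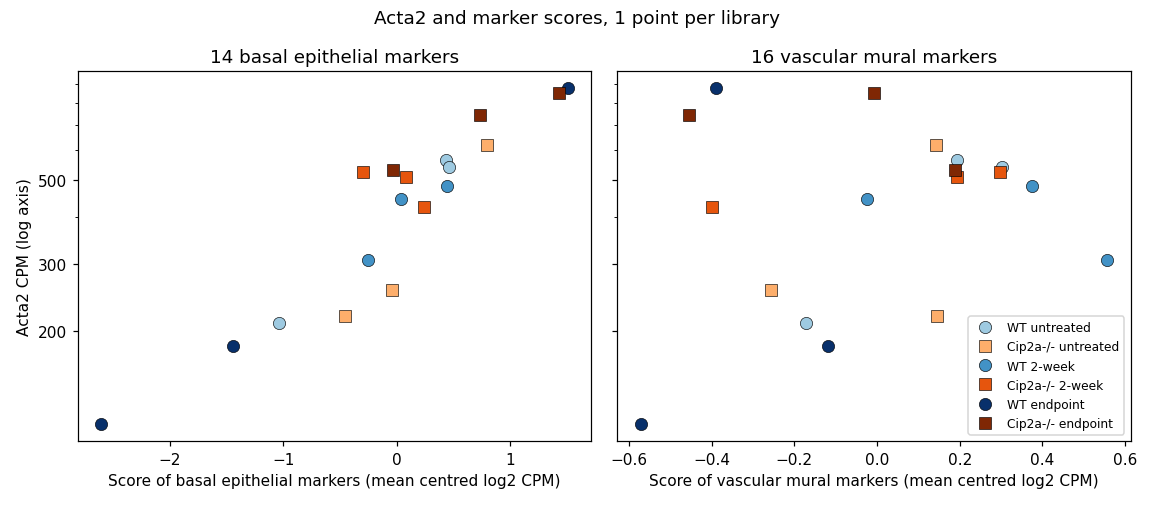
Acta2 in CPM (log axis) against the score of 14 basal epithelial markers (left) and of 16 vascular mural markers (right), 1 point per library, coloured by group. Points rise from lower left to upper right on the left (r = 0.93) and show less of a rise on the right (r = 0.21).

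The basal keratins and the contractile genes were low by different factors in the gland poorest in epithelium. In WT endpoint replicate 1 the level of Krt5 was 2.28 CPM and that of Krt14 0.887 CPM, and the medians of the other 17 libraries were 46.2 and 66.8 times higher. For a further basal keratin gene, Krt17, at 1.39 CPM, the factor was 16.6. The medians of the others were 4.51 times higher for Acta2 (113 CPM here), 2.65 times for Myh11, 2.55 times for Tagln and 1.80 times for Mylk. For Cnn1 the factor was 8.59, for Oxtr 4.10 and for Trp63 2.08. The mural markers Notch3 and Rgs5 stood at 75.7 and 29.2 CPM in that gland, with medians of the others 3.04 and 1.93 times higher. These are values of 1 library, with no replicate.

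By likeness of pattern, measured as Pearson's r of log2 CPM over the 18 libraries among 11992 genes with a mean of at least 5 CPM, the nearest genes to Acta2 were Cnn1, Tagln and Myh11 (0.96, 0.96 and 0.93). Nearest to Myh11 were Tagln, the basal cadherin gene Cdh3 and Acta2 (0.94, 0.94 and 0.93). To Tagln they were Acta2, Cdh3 and Myh11 (0.96, 0.95 and 0.94), and to Cnn1 they were Acta2, Kctd4 and Ptk7 (0.96, 0.95 and 0.94). Mylk was nearest to Myh11, Fubp3 and Itga8 (0.93, 0.92 and 0.91). Cdh3 ranged from 0.887 CPM in WT endpoint replicate 1 to 73.2 CPM in Cip2a-/- endpoint replicate 3.

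The nearest genes to Oxtr were Spon1, Slc1a4 and Plod2 (0.87, 0.86 and 0.84), none of which is a contractile gene. Spon1, which encodes an extracellular matrix protein, had 440.0 CPM in the Cip2a-/- endpoint gland with 859 CPM of Oxtr and 252 CPM in WT endpoint replicate 2, against 17.4 and 13.7 CPM in the other WT endpoint glands. Nearest to Trp63 were Gdpd1, Tph1 and Ccdc136 (0.84, 0.81 and 0.80). Tph1, the enzyme gene for the rate-limiting step of serotonin synthesis outside the brain, ranged from 0 CPM in WT endpoint replicate 1 to 61.6 CPM in Cip2a-/- endpoint replicate 1.

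Other genes of the contractile apparatus were read from a list of 21, which holds further actin-binding, tropomyosin and myosin light chain genes. Of these 0 of 21 passed between the genotypes at the endpoint, with a median log2 fold change of 0.35. The smallest p-values were those of Ppp1r14a, which encodes an inhibitor of myosin phosphatase (0.81 ± 0.25), of the regulatory light chain gene Myl9 (0.85 ± 0.36) and of the intermediate filament gene Des (-3.72 ± 1.58), each with an edgeR adjusted p of 0.458. Myl9 had 63.6, 203 and 113 CPM in WT endpoint glands and 215, 216 and 253 CPM in Cip2a-/- ones, which did not overlap, as in 5.28% of all genes tested. Des had 1150.1, 19.8 and 344 and 40.4, 34.3 and 40.1 CPM in the same order, and it was high in the WT glands with high skeletal muscle genes. Actg2, the gene of the other smooth muscle actin, had 4.69, 56.6 and 4.04 CPM in WT and 20.3, 12.4 and 26.4 CPM in Cip2a-/- endpoint glands, highest among WT glands in replicate 2 as all 7 genes were.

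Between the endpoint and 2 weeks, averaged over genotypes, 2 of these 21 fell and 0 rose, against 6.94% of all genes lower and 6.41% higher. Cald1, which encodes caldesmon, had 200.3, 175 and 205 CPM in WT glands at 2 weeks and 51.0, 132 and 53.7 at the endpoint, and 214, 199.9 and 232 and 153, 129.7 and 100.2 CPM in Cip2a-/- glands. Endpoint values were lower than every 2-week value, with a log2 fold change of -1.03 ± 0.24 (edgeR adjusted p = 0.0175). Vcl, which encodes the adhesion protein vinculin, had 268, 300.4 and 269.5 and 92.4, 158 and 107 CPM in WT and 273, 236 and 258 and 145, 167 and 94.2 CPM in Cip2a-/- glands, again without overlap (-1.07 ± 0.17, edgeR adjusted p = 0.00412). The share of all genes without overlap between endpoint and 2-week libraries was not counted. In the list of oxytocin and calcium signalling, 16 of 17 genes were tested and 4 fell, with 0 higher (6.94% of all genes were lower). They were the kinase genes Rock1 (-0.80 ± 0.19) and Rock2 (-0.81 ± 0.17), Ppp1r12a (-1.07 ± 0.25), which encodes the targeting subunit of myosin phosphatase, and the phospholipase gene Plcb4 (-1.07 ± 0.33), with edgeR adjusted p between 0.0113 and 0.0448. Plcb4 passed in 7 of 20 alternatives and lost its call when any 1 library was left out except Cip2a-/- 2-week replicate 3, WT endpoint replicate 2 and Cip2a-/- endpoint replicate 3 (edgeR adjusted p up to 0.109). Rock1 and Ppp1r12a had an adjusted p of 0.0553 when only the 2-week and endpoint libraries were fitted. Median log2 fold changes were -0.11 for the apparatus list and -0.38 for the signalling list, against 0.05 over all genes. Of the factors Srf, Myocd, Mkl1 and Mkl2, which drive contractile genes, 0 of 4 passed in any comparison.

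In this comparison 1 of the 14 basal markers and 1 of the 16 mural markers were called lower, shares near the 6.94% of all genes that were lower. The basal list as a whole went the other way, with 11 of 14 values above 0 and a median log2 fold change of 0.77. For the mural list 2 of 16 were above 0 and the median was -0.33, against 0.05 over all genes. The basal marker called was Itga6, the laminin receptor gene (-1.11 ± 0.23, edgeR adjusted p = 0.0103). The mural marker was Rgs5 (-1.85 ± 0.25, edgeR adjusted p = 0.00255), which had 86.3, 78.1 and 64.3 CPM at 2 weeks and 29.2, 11 and 11.4 at the endpoint in WT glands, and 61.6, 60.1 and 56.5 and 17, 19.8 and 23.6 CPM in Cip2a-/- glands. Rgs5 was also lower than in untreated glands (-1.41 ± 0.25, edgeR adjusted p = 0.0323). That call was lost without WT untreated replicate 2 or 3, Cip2a-/- untreated replicate 1 or 2, WT endpoint replicate 2 or Cip2a-/- endpoint replicate 3 (edgeR adjusted p from 0.0507 to 0.112), and when only the untreated and endpoint libraries were fitted (0.176). Fibroblast markers moved with the same contrast. Of 8 markers 7 fell and 0 rose, with a median log2 fold change of -1.63, and the collagen gene Col3a1 had -2.78 ± 0.57 (edgeR adjusted p = 0.0103). Their summed level was 5169 to 12098 CPM in 2-week libraries and 675 to 3965 CPM in endpoint libraries, which did not overlap, with no background share counted. The part of fibroblast content in the fall of Cald1, Vcl, Rock1, Rock2 and Ppp1r12a was not tested. Gene length moved with the contrast. Over 14023 genes, the slope of a library's log2 level, taken relative to each gene's mean, per doubling of transcript length was 0.0133 to 0.142 in 2-week libraries and -0.158 to -0.0230 in endpoint libraries, so long transcripts read lower at the endpoint. The longest transcripts of Cald1 and Vcl have 4777 and 5267 bases. The part of this slope in the fall of these genes was not tested.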

How the data were processed

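The authors deposited 1 table of raw read counts per gene symbol, with 1 column per library, per the file headers, and 0 columns were unmatched. Per the labels' protocols the libraries were made from polyA RNA with the TruSeq Stranded mRNA kit, and bcl2fastq 2.17, STAR 2.5.2b, Subread 1.5.1 and mm10 are named in the submitters' processing notes. The sources used here give no annotation or strand setting.

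Counts were fitted with edgeR 4.0.16 in R 4.3.3 (filterByExpr, minimum count 10 and total 15, TMM scaling, 1 term per group, all 18 libraries), and quasi-likelihood p-values were adjusted over the 15482 genes (Benjamini-Hochberg), with genes called when it was under 0.05. CPM are TMM scaled, and log2 CPM used a prior count of 2. Correlations used 100000 two-sided permutations. DESeq2 1.42.0, limma 3.58.1, other scalings, no filter, a replicate block, only the groups compared and each library left out were alternatives. Scripts were tested on simulated data.

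The 7 genes and the 13 gene lists were chosen with earlier results of these data known. Named genes are the 7, Cip2a, each list's called genes or up to 3 with the smallest p in a comparison, defining markers, and for each of the 7 the 3 genes of highest r with a mean of at least 5 CPM. Csn2, Lalba and Actg2 were added after their values were seen. Coordinates and lengths are from GENCODE M21.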

Additional observations from a re-analysis of the deposited data

Results flagged for a closer look

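The fitted Mylk difference between the genotypes had opposite signs at the 2 sampling times after DMBA, -0.18 ± 0.37 (SE, log2) at 2 weeks and 0.58 ± 0.37 at the endpoint, and neither passed the edgeR quasi-likelihood test (adjusted p = 1.00 and 0.536). At 2 weeks every Cip2a-/- library (114, 124 and 135 CPM) lay below the mean of the WT libraries, and at the endpoint every Cip2a-/- library (131, 143 and 180 CPM) lay above it. The log2 difference of Cip2a-/- over WT at the endpoint minus that at 2 weeks was 0.76 ± 0.52 (SE), which did not pass the edgeR quasi-likelihood test (unadjusted p = 0.166, adjusted p = 0.568), and 0 of all genes passed this test. WT 2-week replicate 2, at 104 CPM, lay below all 3 Cip2a-/- 2-week libraries, and leaving out WT 2-week replicate 1 turned the sign there (to 0.0014). WT endpoint replicate 2, at 169 CPM, lay within the Cip2a-/- endpoint range.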

How the results depend on the processing

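The count of genes called among the 7 was 0 in all 217 alternatives run for the 13 comparisons, and 0 with the replicate block. Whether the replicate numbers pair the samples cannot be told from these values. Deviations from the group means had a mean correlation of 0.03 over 45 pairs of the same number and -0.02 over 90 pairs of other numbers. As a hint from the data only, 10 of 18 libraries correlated best with a library of their own number, where the share of such partners gives 6. With the replicate block Acta2 at the endpoint had a log2 fold change of 1.22 between the genotypes and Myh11 1.08 (edgeR adjusted p = 0.495 and 0.490), and the block changed no call among the 7. Plcb4, lower at the endpoint than at 2 weeks, lost its call with the block (adjusted p = 0.0678) and without the low-count filter (0.0506).

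Of 369 alternatives for 23 single-gene results of Trp63, Acta2, Myh11, Cnn1, Mylk, Tagln and Oxtr, 341 kept the direction and 28 reversed. Among these alternatives 0 were called, the smallest adjusted p being 0.0562 (edgeR). With limma voom Oxtr had -0.24 for endpoint against untreated WT glands and -0.65 for endpoint against 2 weeks. With both endpoint libraries numbered 1 left out, chosen after the data were seen, Oxtr had -1.62 between the genotypes at the endpoint, -0.68 for endpoint against untreated Cip2a-/- glands, -0.63 for endpoint against 2 weeks and -1.70 for the interaction, and Mylk 0.11 and 0.043 for endpoint against untreated and against 2 weeks. The cause was not tested.

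Leaving out 1 library at a time, log2 fold changes that changed sign ran as follows. Between the genotypes Trp63 ran from -0.0061 to 0.58 untreated and from -0.56 to 0.46 at the endpoint, Mylk from -0.34 to 0.0014 at 2 weeks, and Oxtr from -1.18 to 3.71 at the endpoint. For 2 weeks against untreated Tagln ran from -0.24 to 0.13. For endpoint against untreated Oxtr ran from -1.67 to 1.04 in WT, from -0.67 to 2.49 in Cip2a-/- glands and from -0.054 to 1.53 on average, and Mylk from -0.33 to 0.11. For endpoint against 2 weeks Mylk ran from -0.40 to 0.045, Tagln from -0.032 to 0.60 and Oxtr from -0.87 to 0.71. The Oxtr interaction ran from -1.23 to 3.63.

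Correlations past the threshold numbered 6 or 7 of 14 with the 2 lists and 15 to 19 of 21 among the 7 genes under every setting run. Within-group SDs of up to 1.45 log2 units, with 3 glands a group, made the intervals wide, and each of the 7 genes had at least 104 reads in every library. Counts of Mylk and Tagln may hold reads of neighbours on the opposite strand. The genotype effect averaged over conditions had no separate fit on the groups compared, since it uses all 6.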
